A study of Macaca mulatta with 17 samples.

Results

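The mitotic spindle and kinetochore genes were followed in the uteri of fetal and newborn rhesus macaques (Macaca mulatta). The module was a list of 40 genes that act when a cell divides. A gene was measured when the description of a probe on the macaque array gave its symbol or an older name in parentheses, or named it as the human gene that the transcript is similar to. It was also measured when the description gave a gene ID number that a reference list of genes assigns to it. BUB1, NUSAP1, FOXM1 and DLGAP5 were found in this last way. Of the 40 genes, 38 were found among the 20217 probes, through 39 probes in all. AURKA and KIF14 were not analysed here. PTTG1 had 2 probes, and the one with the higher mean signal over all 17 arrays was used for it.

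RNA from the frozen part of each uterus was measured on its own Agilent array with 1 dye, so each array stands for 1 female animal. GD100 animals were delivered by caesarean section at gestational day (GD) 100, after their mothers had received a daily fruit treat from GD50 with either bisphenol A (BPA, deuterated, 400 µg/kg/day) or ethanol vehicle. GD165 animals were exposed in the same way from GD100 until vaginal delivery at about GD165 and were killed within a day of birth, and stillborn animals were left out of the arrays. There were 5 GD100 control, 5 GD100 BPA, 4 GD165 control and 3 GD165 BPA animals. Age, period of exposure and mode of delivery therefore changed together and cannot be told apart. All levels below are log2 signals after each array was set to a common 75th percentile, so a difference of −1 is a 2-fold lower signal.

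A dividing cell copies its DNA, condenses its chromosomes and then pulls the copies apart on a spindle of microtubules. Chromosomes attach to the spindle through kinetochores, protein plates built on the centromere, and a checkpoint holds the cell in place until every chromosome is attached. Once that signal is lifted, the anaphase-promoting complex marks cyclin B and securin for destruction, the sister chromatids part and the midzone of the spindle guides the cut between the daughter cells. Most genes in this module are transcribed late in the cell cycle and are low in resting cells, so their RNA in a whole tissue is widely read as a sign of how many cells are dividing. In bulk tissue, fewer dividing cells and less RNA per dividing cell cannot be told apart.

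What the array read can be seen in the probes themselves, which are 60 bases long. A stretch of 30 bases is shown for CDC20 and BIRC5 because these probes hold the polyadenylation signal AATAAA (capitals), the mark that precedes the end of most messenger RNAs. The first 30 bases are shown for MKI67 and HMMR because of the large difference of MKI67 between ages in controls and the wide spread of HMMR between animals.
CDC20, bases 31 to 60: ttttttatttttctAATAAAgtcatgtctc
BIRC5, bases 31 to 60: aagaataacacaattgccAATAAAgtctaa
MKI67, bases 1 to 30: gcaggttcgtagtttgcctgaaattgttct
HMMR, bases 1 to 30: acaggtttttaggctccatcctatttgtat
AATAAA, searched as written on the probe's own strand, was found in 4 of the 38 member probes (10.5%; BIRC5, CDC20, DLGAP5 and KIF11) and in 12.8% of all 20217 probes. The listed chromosome was that of the macaque gene for 25.0% of 9182 named probes that could be compared, so no positions are given.

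All 38 member probes were well above background on each of the 17 arrays and none was saturated. Over all probes, 84.8% to 90.0% were well above background per array, the arrays lay on 6 slides, and no pair of arrays held the same values (Pearson r over all probes 0.974 to 0.995 in 136 pairs). Of the markers of the labelled tissue, the smooth muscle genes DES and MYH11 and the Müllerian gene HOXA11 were well above background on every array. Genes of other tissues were present as well, and they are given beside the results below.

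The first comparison asked how the module differed between GD100 and GD165 in control uteri. It was lower at GD165 almost without exception. Of the 38 members, 37 fell (limma adjusted p under 0.01), none rose, and the median log2 difference was −1.27, which is 2.41-fold. Over all 20217 probes, 5.2% fell and 6.32% rose, with a median log2 difference of 0.0046. In 37 members the highest GD165 control lay below the lowest GD100 control, a separation in this direction that 9.9% of all probes showed. HMMR was the exception on both counts.

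**Figure D1:**
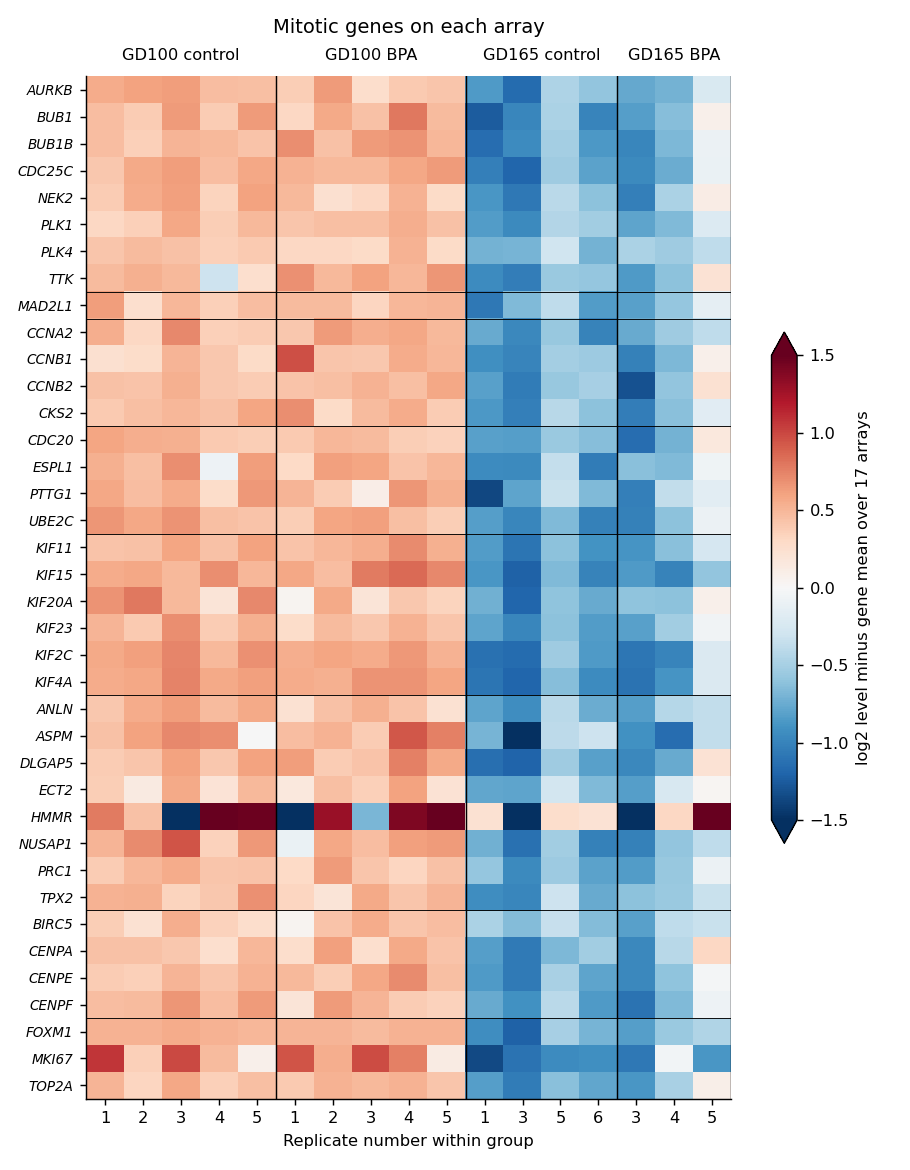
Log2 level of the 38 members (rows, grouped by role from mitotic kinases at the top to proliferation regulators at the bottom) on the 17 arrays (columns, by group and replicate), each gene minus its own mean over the arrays. The colour scale ends at 1.5 on either side and the HMMR row runs past it. All GD100 columns are mostly red, GD165 columns are mostly blue, and GD165 BPA replicate 5 is the palest of the GD165 columns.

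The kinases that drive mitosis fell together, 8 of 8 kinase and phosphatase genes passing the test, with log2 differences from −1.43 to −1.02. PLK1, the polo kinase that acts in spindle building and mitotic exit, had levels of 12.26, 12.31, 12.52, 12.32 and 12.43 in GD100 controls and 11.11, 10.99, 11.50 and 11.43 in GD165 controls. The groups lay well apart, and PLK1 fell by 1.11 (SE 0.12, 2.16-fold, limma adjusted p = 3.25e-05). AURKB, the kinase of the chromosome passenger complex, which corrects faulty attachments, stood at 13.76, 13.81, 13.83, 13.66 and 13.65 at GD100 and at 12.35, 12.05, 12.74 and 12.61 at GD165. Its highest GD165 control was again under every GD100 control, and it fell by 1.30 (SE 0.14, limma adjusted p = 2.17e-05).

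Checkpoint genes behaved alike. BUB1B, a kinetochore protein that restrains the anaphase-promoting complex, read 11.01, 10.91, 11.05, 11.03 and 10.98 in GD100 controls, a narrow band, and 9.41, 9.60, 10.04 and 9.69 in GD165 controls (difference −1.31, SE 0.15, limma adjusted p = 3.95e-05). BUB1, the related kinase, read 11.70, 11.61, 11.88, 11.61 and 11.88 at GD100 and 9.98, 10.25, 10.76 and 10.24 at GD165 (difference −1.43, SE 0.18, limma adjusted p = 7.62e-05). Replicate 5 was the highest of the GD165 controls for both. MAD2L1, the checkpoint protein that binds the activator CDC20, fell by 1.18 (SE 0.14, limma adjusted p = 5.45e-05). TTK, the kinase that starts checkpoint signalling, fell by 1.07 and had the wider error of this set (SE 0.21, limma adjusted p = 0.0019): GD100 control replicate 4 was at 9.52, against 10.08 to 10.36 in the other GD100 controls, and the GD165 controls were at 8.78 to 9.27.

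All 4 cyclin and CDK partner genes fell, by 1.08 to 1.29 on the log2 scale. CCNB1, the cyclin B gene whose product switches on CDK1 at mitotic entry, was at 10.39, 10.43, 10.66, 10.55 and 10.44 in GD100 controls and at 9.23, 9.16, 9.65 and 9.61 in GD165 controls, a fall of 2.12-fold (log2 SE 0.19, limma adjusted p = 0.000811). The 4 genes of the step into anaphase fell by 1.20 to 1.43. CDC20, which activates the anaphase-promoting complex, stood at 14.26, 14.21, 14.20, 14.06 and 14.03 at GD100 and at 12.85, 12.84, 13.11 and 13.02 at GD165 (difference −1.20, SE 0.18, limma adjusted p = 0.000285). UBE2C, the ubiquitin-conjugating enzyme of that complex, fell by 1.43, and ESPL1, the protease separase, by 1.27. The 2 probes of PTTG1, which encodes securin, the inhibitor of separase, gave falls of 1.29 (SE 0.20) and 1.35 (SE 0.20), which differ by less than either standard error.

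Kinesins, the motors that move along spindle microtubules, showed the largest falls as a class: 6 of 6 passed the test, with a median of −1.45. KIF4A, a chromosome-bound motor that organises the midzone, was at 13.45, 13.47, 13.63, 13.46 and 13.51 in GD100 controls and at 11.80, 11.70, 12.26 and 11.95 in GD165 controls, a fall of 2.99-fold (log2 SE 0.15, limma adjusted p = 1.02e-05). KIF15, a motor that helps to keep the spindle bipolar, had 11.28, 11.31, 11.21, 11.43 and 11.23 against 9.86, 9.52, 10.07 and 9.73, and the smallest adjusted p of the module (difference −1.50, SE 0.12, limma adjusted p = 5.56e-06). KIF11, the motor that drives the spindle poles apart, read 9.87, 9.88, 10.03, 9.87 and 10.04 against 8.60, 8.34, 8.82 and 8.54 (difference −1.36, SE 0.12, limma adjusted p = 8.5e-06). KIF20A, a motor of the midzone and of cytokinesis, fell by 1.39 in controls and comes back below, since the BPA-exposed animals gave a smaller value.

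Of the 8 spindle and midzone microtubule proteins, 7 fell. PRC1, which bundles the microtubules of the midzone, was at 14.27, 14.39, 14.45, 14.30 and 14.31 in GD100 controls and at 13.31, 12.93, 13.34 and 13.09 in GD165 controls (difference −1.18, SE 0.13, limma adjusted p = 3.22e-05). NUSAP1, which binds microtubules near the chromosomes, fell by 1.48 and DLGAP5, a spindle assembly factor, by 1.40. ASPM, a spindle pole protein, fell by 1.26 with one of the larger errors (SE 0.25, limma adjusted p = 0.00247): GD100 controls were at 9.54, 9.70, 9.82, 9.80 and 9.09, and GD165 controls at 8.40, 7.44, 8.71 and 8.79, with replicate 3 well under the rest. ECT2, the exchange factor that starts the contractile ring, fell by 0.98.

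The centromere and passenger proteins fell in 4 of 4 cases. CENPA, the histone variant that marks the centromere, had 12.04, 12.04, 12.00, 11.85 and 12.10 in GD100 controls and 10.77, 10.54, 10.92 and 11.08 in GD165 controls (difference −1.17, SE 0.19, limma adjusted p = 0.000528). BIRC5, or survivin, a partner of AURKB in the passenger complex, had the smallest fall of the module: 10.35, 10.21, 10.52, 10.33 and 10.24 at GD100 against 9.51, 9.34, 9.63 and 9.33 at GD165, which is 1.84-fold (log2 SE 0.12, limma adjusted p = 0.000181). The groups were still well apart.

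The proliferation regulators, fell in 3 of 3 cases. FOXM1, the transcription factor that switches on many late cell cycle genes, was nearly the same in all GD100 controls, at 11.99, 11.99, 12.02, 11.99 and 11.96, and spread out at GD165 to 10.54, 10.25, 10.97 and 10.76 (difference −1.36, SE 0.12, limma adjusted p = 8.5e-06). TOP2A, the topoisomerase that untangles sister chromatids, was at 15.35, 15.17, 15.42, 15.19 and 15.30 and then at 14.01, 13.79, 14.22 and 14.07 (difference −1.26, SE 0.15, limma adjusted p = 3.97e-05). MKI67, which encodes the proliferation antigen Ki-67 that pathologists stain for, had the largest difference at the setting used. Its GD100 controls were at 7.90, 7.17, 7.81, 7.30 and 6.90 and its GD165 controls at 5.47, 5.71, 5.88 and 5.90, a fall of 3.2-fold (log2 SE 0.25, limma adjusted p = 0.000251). With the normexp background correction it fell by 0.97 on the log2 scale, or 1.96-fold (limma adjusted p = 0.000709), and was no longer the largest. These are RNA levels. In the study's own counts of cells stained for Ki-67 protein, epithelium and stroma combined, no significant decrease was seen at GD165. Those counts used small fields, the epithelial ones near the fundus, and the study's histology covered more GD165 animals than the arrays. On the arrays, the study also reported most genes of its top cell cycle network as lower at GD165.

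HMMR, which encodes a microtubule-binding protein of the spindle that is also a receptor for hyaluronan, stood apart. GD100 controls were at 8.74, 8.41, 4.96, 10.11 and 9.44, GD100 BPA animals at 5.27, 9.26, 7.28, 9.36 and 9.82, GD165 controls at 8.19, 5.16, 8.23 and 8.19, and GD165 BPA animals at 4.94, 8.28 and 9.76. In each group 1 animal was near 5, and the next animal above these 4 was at 7.28. Of these 4 animals, GD100 control replicate 3 was the highest of its group for 24 of the 38 members, whereas GD100 BPA replicate 1, GD165 control replicate 3 and GD165 BPA replicate 3 were the lowest of theirs for 16, 28 and 33 members. The within-group SD of HMMR was 1.95, against 0.40 for the next widest member and a median of 0.23 over the members, and 28 of the 20217 probes had an SD that large. Its difference in controls was −0.89 with an SE of 1.22 (limma adjusted p = 0.675) and so the test settled no direction for it. Its Agilent probe, shown above, was well above background in the low animals too.

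**Figure D2:**
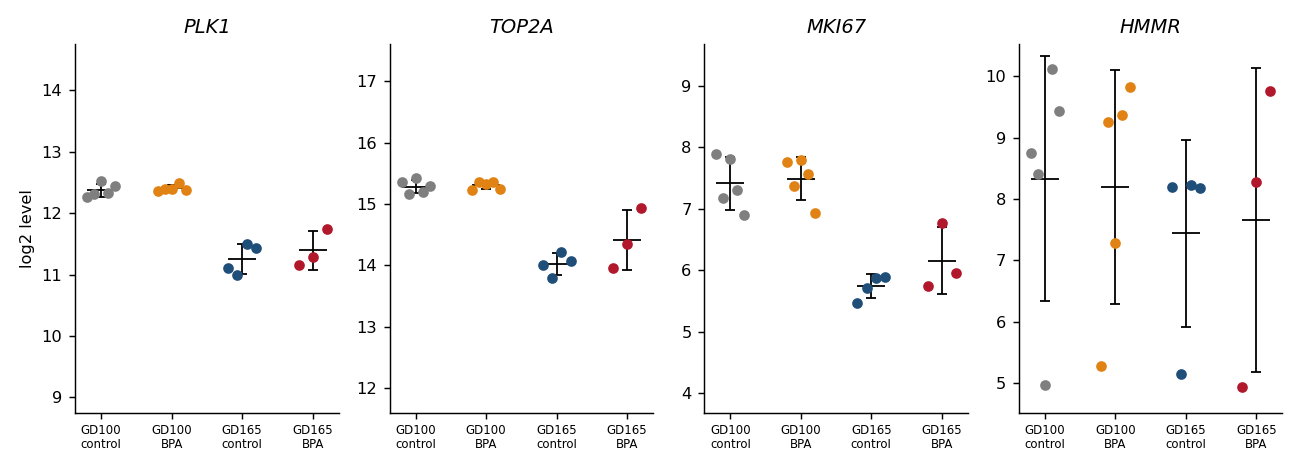
Log2 level (vertical axis, each panel spanning the same range of 6 log2 units) of PLK1, TOP2A, MKI67 and HMMR in each animal, by group, with the group mean (bar) and SD (whiskers). PLK1 and TOP2A separate the ages with little spread, MKI67 separates them with more, and HMMR has 1 animal near 5 in every group.

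The module can be summed up per animal by a score, the mean over the 38 members of each level minus the gene's own mean over the arrays. GD100 controls scored 0.50, 0.46, 0.50, 0.43 and 0.51, and GD165 controls (replicates 1, 3, 5 and 6) scored −0.87, −1.07, −0.48 and −0.73. The scores were 0.48 ± 0.03 (SD, n = 5) and −0.79 ± 0.25 (SD, n = 4) without overlap, and the GD165 animals were the more variable. Replicate 5 was the highest of the GD165 controls for 34 members and replicate 3 the lowest for 28. On the 2 slides that carried controls of both ages, 1 of each, the median member difference was −1.60 (37 of 38 below 0) and −1.37 (38 of 38 below 0).

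Genes of the same processes outside the module fell as well, but less completely. They come from lists of textbook members that were chosen with earlier results of these data known, so their falls are a description. Of 28 other kinetochore and centromere genes 18 fell (median −0.72), led by ZWINT (−1.63, limma adjusted p under 0.01) and SKA1 (−1.49), both of the outer kinetochore. CENPU had a larger difference, −1.93, but did not pass, nor did NUF2 and CENPB, with log2 differences of 0.01 and 0.11, did not pass. Of 19 other spindle and cytokinesis genes 13 fell (median −0.97), with TROAP (−1.56) and KIF18A (−1.49) at the front, and of 12 condensin and cohesin genes 8 fell (median −0.73), CDCA5, which protects cohesion, by 1.55 and NCAPH, a condensin subunit, by 1.22. Among 11 regulators of mitotic entry 9 fell (median −0.81): MELK by 1.62, PBK by 1.49 and CDK1, the kinase that cyclin B activates, by 0.80. WEE1, which holds CDK1 back, had a difference of 0.08 and did not pass.

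The genes of the anaphase-promoting complex list changed less. In controls 13 of the 15 differences were below 0. The list's scores were 0.07 to 0.26 in GD100 controls and −0.31 to −0.10 in GD165 controls. Of its 15 genes 3 fell, with a median of −0.16, and those were FBXO5 (−1.14), an inhibitor of the complex, UBE2S (−0.63), a ubiquitin-conjugating enzyme that works with it, and the subunit CDC23 (−0.48). The activator CDC20 and the enzyme UBE2C of the complex fell by more than 2-fold, while the subunit ANAPC2 had a difference of −0.05. ANAPC4 and ANAPC5, the 2 genes of the list above 0, had 0.07 and 0.07. Upstream regulators were split as well, with 9 of 22 falling: E2F8 (−1.74), MYBL2 (−1.48) and E2F1 (−1.18) fell, and RB1 (−0.08), CCND1 (0.18) and the CDK inhibitor CDKN1A (0.75) did not pass the test. Of 26 DNA replication genes 23 fell (median −0.92), UHRF1 by 1.85 and CDC45 by 1.49. No gene of these lists rose.

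Markers of other cell types were read over the same interval, in which 6.32% of all probes rose and 5.2% fell. In GD165 controls 9 of 26 skeletal muscle genes rose (median 1.52), among them MYH2 by 4.35 and ACTA1 by 5.14, and the summed signal of the list, in units of 1000, was 58.5 to 307 against 44.2 to 84.0 in GD100 controls. For leukocyte genes 4 of 25 rose (median 0.51), with sums of 81.0 to 84.9 against 47.7 to 62.0. For squamous epithelium 2 of 21 rose, a share not far from that of all probes, with sums of 122 to 269 against 101 to 121. GD165 control replicate 6 had the sum of 269 and a squamous score of 2.27, and the other GD165 controls scored −0.41, 0.05 and 0.50. For 19 erythroid genes only HBB rose, the adult beta-globin gene, a share near that of all probes, and the sums overlapped (798 to 2397 against 934 to 1585). The uterine wall list had 3 genes that rose and 1 that fell of 14, with sums of 2165 to 2852 against 1819 to 2452. No defining marker was at 0: PTPRC, HBB, HBA2, ACTA1, MYH2, KRT5 and TP63 were above background on every array. Their part in the fall of the module was not tested. In GD165 control replicate 3, whose skeletal muscle score of 0.21 was the lowest of that group, the module's score of −1.07 was also the lowest. By summed muscle signal that animal, at 66.8, was not the lowest: replicates 1 and 6 were at 65.8 and 58.5.

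The second comparison asked the same of BPA-exposed animals, which share no array with the controls. The module was again lower at GD165. Of the 38 members 34 fell and none rose (all probes: 4.86% fell, 4.82% rose), the median log2 difference was −1.01 (2.01-fold; all probes −0.05), and in 35 members the groups did not overlap (15.4% of all probes in this direction). KIF20A (−0.69, SE 0.19, limma adjusted p = 0.0174), CENPA (−0.78, SE 0.21, adjusted p = 0.0154), ECT2 (−0.71, SE 0.18, adjusted p = 0.0121) and HMMR did not pass. The count is less secure than in controls: with the slide as a fixed block 12 members passed, in a fit of these groups alone 18, and without GD165 BPA replicate 3 22, while all 38 differences were below 0 without replicate 5 (36 passing). CCNB2 and NEK2 went from −1.05 and −0.83 to −0.67 and −0.55 without replicate 3 and no longer passed. The single slide with both ages held GD165 BPA replicate 5 and 1 GD100 BPA animal, and gave a smaller median of −0.58, with 38 of 38 members below 0.

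**Figure D3:**
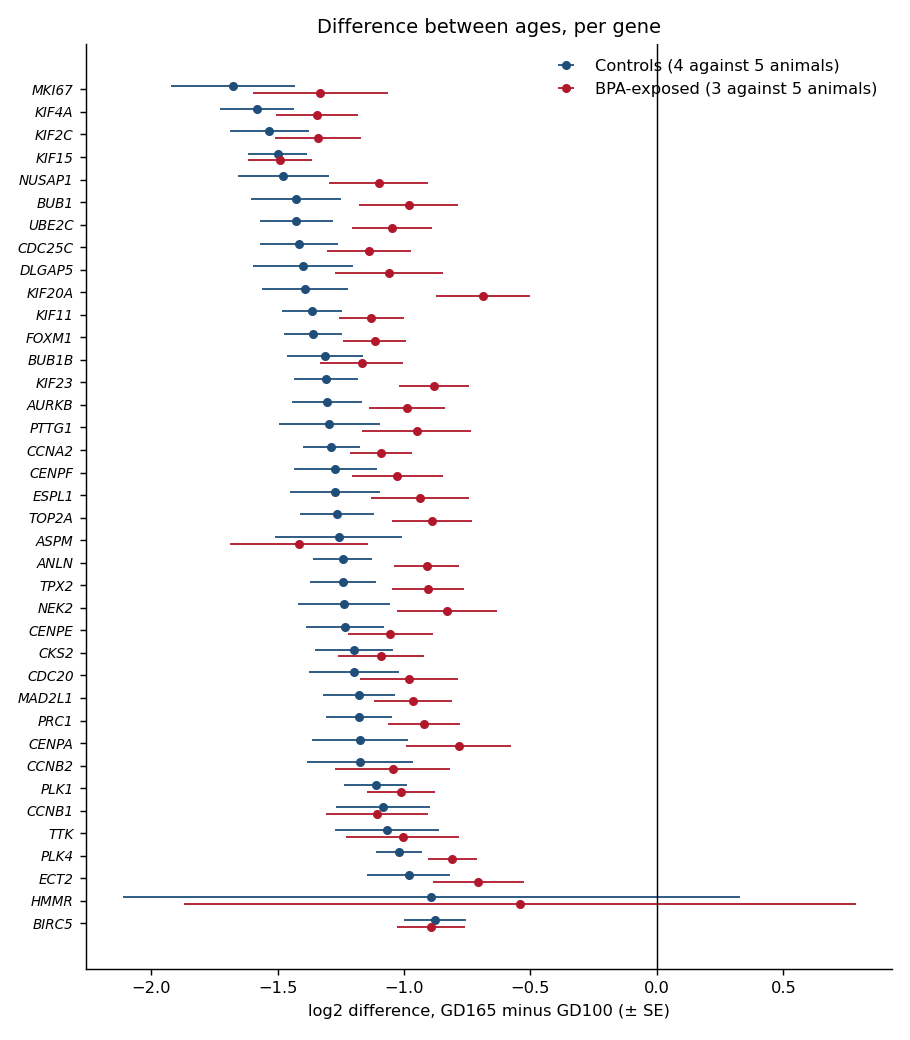
Log2 difference between GD165 and GD100 (horizontal axis, with its standard error) for each of the 38 members, ordered by the fall in controls, for control animals (blue) and BPA-exposed animals (red). All points lie below 0 and the bars of HMMR alone cross it.

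KIF15 and ASPM had the largest falls in BPA-exposed animals. KIF15 stood at 11.31, 11.19, 11.51, 11.58 and 11.45 in GD100 BPA animals and at 9.89, 9.73 and 10.14 in GD165 BPA animals (difference −1.49, SE 0.13, limma adjusted p = 1.3e-05), close to its fall in controls. ASPM had 9.56, 9.63, 9.48, 10.04 and 9.85 against 8.20, 7.96 and 8.73 (difference −1.42, SE 0.27, limma adjusted p = 0.0025). The smallest fall apart from HMMR was that of KIF20A, at 9.56, 10.08, 9.70, 9.92 and 9.85 in GD100 BPA animals and 8.92, 8.90 and 9.59 in GD165 BPA animals. Here replicate 5 reached into the range of the GD100 BPA animals, and so it did for CENPA, where 10.63, 11.18 and 11.91 stood against 11.86, 12.21, 11.85, 12.17 and 12.02.

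The genes that report on the core of the mitotic programme fell in both arms. PLK1 was at 12.37, 12.40, 12.39, 12.49 and 12.38 in GD100 BPA animals and at 11.15, 11.29 and 11.75 in GD165 BPA animals, a fall of 2.02-fold (log2 SE 0.14, limma adjusted p = 0.000215). FOXM1 went from 11.98, 11.97, 11.94, 11.98 and 11.99 to 10.64, 10.91 and 11.01, with an SE of 0.13 on a difference of −1.12 (limma adjusted p = 7.92e-05). MKI67 was at 7.76, 7.37, 7.80, 7.57 and 6.94 and then at 5.74, 6.78 and 5.95, where replicate 4 and not replicate 5 was the high one (difference −1.33, SE 0.27, limma adjusted p = 0.00313). For CDC20, with 14.06, 14.16, 14.14, 14.03 and 14.01 at GD100, the GD165 BPA animals ran from 12.52 and 12.96 to 13.82, and replicate 5 was nearer to GD100 than to replicate 3. TOP2A ran from 13.97 and 14.35 to 14.93 against 15.24 to 15.37 at GD100.

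In 35 of 38 members the fall was larger in controls than in BPA-exposed animals. The difference of the falls, tested gene by gene as the interaction of age and BPA, passed for none of the 38 members and for none of the 20217 probes (limma adjusted p under 0.01). Because the period of exposure differed between the ages, this contrast mixes age with the time of exposure. At an unadjusted p under 0.05, 2 members and 1584 probes were counted. The median interaction of the members was 0.25, with 35 of 38 above 0 against 44.3% of all probes, and the largest was that of KIF20A (0.70, SE 0.25, limma adjusted p = 0.535). Without GD165 BPA replicate 5 the median interaction was 0.05, with 22 of 38 members above 0, and that of KIF20A was 0.48. Without GD165 BPA replicate 3 instead, the median interaction was 0.43. In controls KIF20A was at 10.19, 10.30, 10.00, 9.71 and 10.24 at GD100 and at 8.79, 8.33, 8.91 and 8.76 at GD165, without overlap, so it was the BPA arm, given above, in which the ages came closer. CCNB1 and ASPM had interactions of −0.02 and −0.16. Across the 38 genes the falls in the 2 arms had a Spearman rho of 0.58, given as a description, since the genes share arrays.

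The third comparison asked whether BPA changed the module at GD100. No member and no probe on the array passed the test, and at an unadjusted p under 0.05 there were 0 members and 767 of 20217 probes. The study's own error-weighted analysis did report some differing genes at this age, and described the differences as minimal. The median log2 difference of the members was 0.0091, 21 were above 0 and 17 below (53.3% of all probes were above 0), and no member separated the groups (0.401% of probes were lower and 0.381% higher without overlap). The values with the greatest size were those of TTK (0.30, SE 0.19), CCNB1 (0.22, SE 0.18), KIF20A (−0.26, SE 0.16) and NUSAP1 (−0.19, SE 0.17). For TTK, BPA animals at 10.51, 10.31, 10.43, 10.33 and 10.49 lay within or just above the upper 4 controls, and without the control at 9.52 the difference was 0.15. CCNB1 was at 11.12 in replicate 1 of the BPA group against 10.55 to 10.71 in the other BPA animals, and without that animal the difference was 0.12. NUSAP1 was at 10.95 in that same animal and at 11.50 to 11.68 in the other BPA animals, the opposite direction, with controls at 11.55, 11.75, 11.99, 11.40 and 11.70.

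BPA animals scored 0.34, 0.51, 0.45, 0.59 and 0.50 at GD100, which is 0.48 ± 0.09 (SD, n = 5), against 0.48 ± 0.03 (SD, n = 5) in controls. On the 3 slides that held both groups the median member differences were 0.05, 0.06 and −0.15. The typical member had an SE of 0.15 in this comparison.

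The fourth comparison asked the same at GD165. Again no member and no probe passed the test, with 4 members (TOP2A, KIF23, BUB1 and KIF20A) and 1740 probes at an unadjusted p under 0.05. The study's own error-weighted analysis, at the same adjusted threshold, did report probes that differed at this age, some of them checked by real-time PCR. The absence of calls here therefore belongs to the test used. The members leaned to one side, however: 37 of 38 were above 0, where 44.7% of all probes were, and the median was 0.23 against −0.02 over all probes. Lists of other cell types leaned the other way, with no gene passing: 19 of 21 squamous genes (median −0.95), 18 of 19 erythroid genes (median −0.65) and 21 of 26 skeletal muscle genes (median −0.35) were below 0, and 15 of 25 leukocyte genes (median 0.07) above it. The uterine wall genes were split, 7 on either side (median 0.01). Their part in the lean of the module was not tested. No member separated the groups (5.24% of probes were lower and 2.07% higher without overlap). BUB1 had the largest value (0.46, SE 0.20, limma adjusted p = 0.56), with BPA animals at 10.41, 10.59 and 11.32 and controls at 9.98 to 10.76. KIF20A followed (0.44, SE 0.19, limma adjusted p = 0.566). BIRC5 and ASPM had 0.02 (SE 0.14) and −0.04 (SE 0.29).

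The lean was much smaller without 1 animal. Replicate 5 of the GD165 BPA group was the highest of the 7 GD165 animals for 34 of the 38 members. CCNB1, for example, was at 9.14 and 9.47 in replicates 3 and 4 and at 10.22 in replicate 5, with controls at 9.16 to 9.65. AURKB had 12.43, 12.49 and 12.97, BUB1B 9.58, 9.88 and 10.47, and PRC1 13.05, 13.32 and 13.80, each time with replicate 5 above all controls and replicates 3 and 4 within them. Without replicate 5 the median member difference was 0.04, with 26 of 38 members above 0, and the score difference went from 0.25 to 0.02. Leaving out the highest animal had to lower the lean. Without replicate 3 instead, the lowest of the BPA animals for 33 members, the median was 0.44 and the score difference 0.45. The single slide that carried both groups held replicates 3 and 4 with control replicate 1 and gave a median of 0.11, with 29 of 38 above 0.

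**Figure D4:**
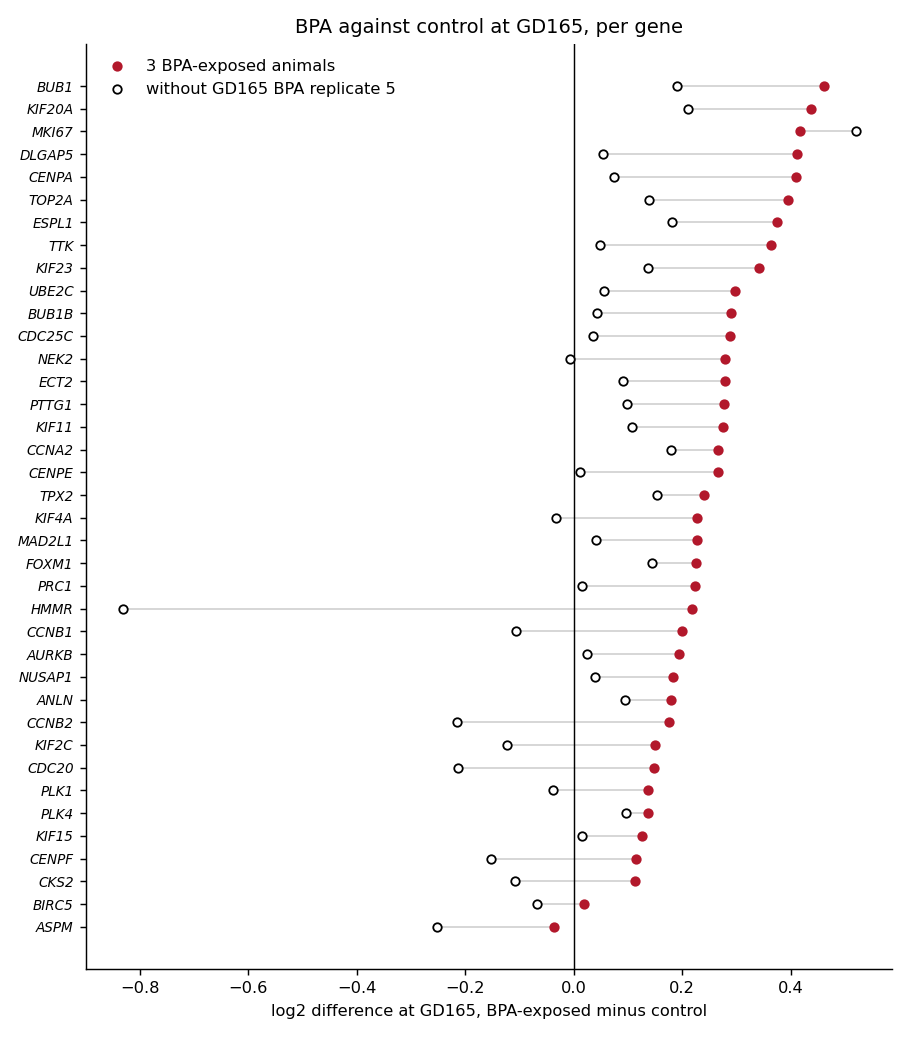
Log2 difference at GD165 between BPA-exposed and control animals (horizontal axis) for each member, with all 3 BPA-exposed animals (filled) and without GD165 BPA replicate 5 (open). With all animals 37 of 38 members lie above 0, and without replicate 5 the median is 0.04. Without replicate 3 instead (not drawn) it is 0.44.

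The scores at GD165 were −0.96, −0.58 and −0.09 in BPA replicates 3, 4 and 5, which is −0.54 ± 0.44 (SD, n = 3), against −0.79 ± 0.25 (SD, n = 4) in controls. Replicate 5 was also the highest GD165 animal for the mitotic entry genes (−0.21) and the other spindle and cytokinesis genes (−0.17), and the highest of the BPA animals for the other kinetochore genes (−0.24) and the upstream regulators (−0.19). It was not set apart in the DNA replication genes, where the 3 BPA animals had −0.53, −0.54 and −0.53. For condensin and cohesin genes it was at −0.24, under replicate 4 at −0.21. For the anaphase-promoting complex list it was the lowest of the BPA animals, at −0.15 against −0.07 and −0.09. GD165 control replicate 5, the highest control for the mitotic genes, also had the highest replication score of that age, at −0.09, and control replicate 6 had the lowest, at −0.997. These 2 animals numbered 5 also had the highest skeletal muscle scores of their groups, 3.16 in the control and 2.80 in the BPA animal, against −0.23 to 1.15 in the other GD165 animals. Their arrays lay on different slides. Among the other GD165 BPA animals the order by muscle score differed: replicate 4 had a muscle score of −0.23 and a mitotic score of −0.58. Replicate 3 had the higher muscle score (0.06) and the lower mitotic score (−0.96). By summed muscle signal, in the unit given above, BPA replicates 3, 4 and 5 stood at 50.8, 81.1 and 176.5, the order of their mitotic scores. The GD165 controls did not keep that order: replicate 3, the lowest by mitotic score, was at 66.8 and replicate 6 at 58.5. Whether the muscle signal has a part in the mitotic level of these animals was not tested.

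**Figure D5:**
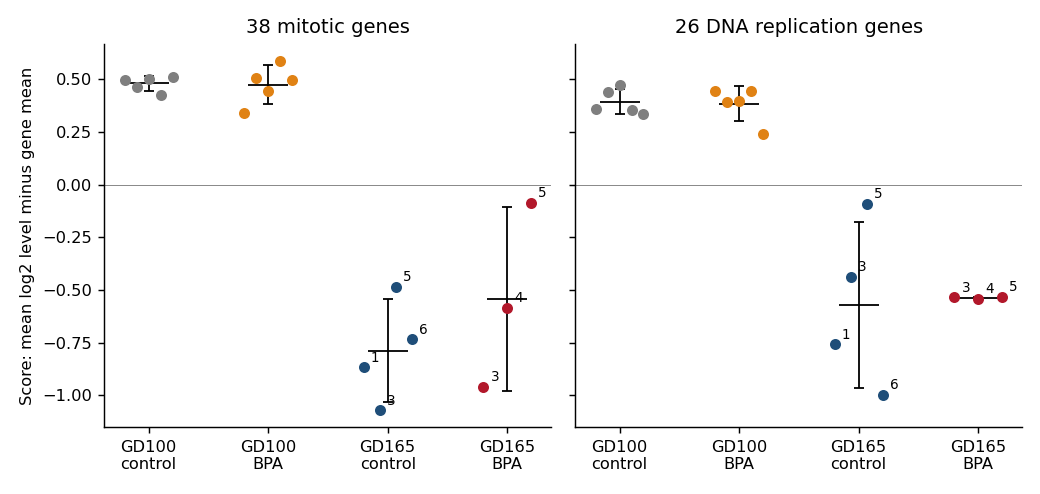
Score per animal (vertical axis, mean log2 level minus each gene's mean over the 17 arrays) for the 38 mitotic genes and for 26 DNA replication genes, by group, with mean and SD; numbers give the GD165 replicates. In the mitotic panel GD165 BPA animals spread from −0.96 to −0.09, and in the replication panel they lie within 0.01 of each other.

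In the pathway lists no gene passed in either BPA comparison. In BPA-exposed animals between the ages, 15 of 28 other kinetochore genes, 9 of 19 spindle and cytokinesis genes, 6 of 12 condensin and cohesin genes, 9 of 11 regulators of mitotic entry, 8 of 22 upstream regulators and 18 of 26 replication genes fell, and 2 of 15 genes of the anaphase-promoting complex list, FBXO5 (−0.96) and UBE2S (−0.60). None rose. Among other tissues in this arm, where 4.82% of all probes rose and 4.86% fell, 4 of 26 skeletal muscle, 4 of 25 leukocyte and 2 of 14 uterine wall genes rose, and of 19 erythroid genes 1 rose and 4 fell. Of 21 squamous genes 1 rose and 1 fell, a share near that of all probes. Their part in the fall of the module was not tested.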

How the data were processed

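RNA of 17 fetal uteri was hybridised to single-dye Agilent macaque arrays. Per the labels and the submitters' processing notes, the deposited intensity values come from Agilent Feature Extraction 9.5, which subtracts background and fits an error model; no scaling between arrays was part of the deposited intensity. The deposited series table held the same values. From the processed signal, outlier spots were dropped, log2 values of the 2 spots of a probe averaged, each array's 75th percentile subtracted and the mean percentile (12.62) added back. Arrays give no counts, and the number of animals limits the precision.

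The 4 groups were fitted together over 20217 probes with limma 3.58.1 (R 4.3.3), with Benjamini-Hochberg adjustment and a threshold of 0.01, as in the study's methods, which used an error-weighted analysis in other software. The model was tested on simulated data. Summaries used Python 3.11.15, numpy 2.4.6 and pandas 2.3.3, and figures matplotlib 3.10.9. The p-values set each difference against the spread between animals within groups, shared over the 4 groups. The module's spread was not equal: its score had an SD of 0.03 and 0.09 in GD100 control and BPA animals, and of 0.25 and 0.44 at GD165. The shared errors can therefore be too small where GD165 animals are compared. The main fit had no term for the slide, so differences between slides are mixed with those between animals.

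Members and lists were chosen with earlier results of these data known. All members may be named; values per array are given for PLK1, AURKB, CCNB1, CDC20, BUB1B, CENPA, KIF11, PRC1, FOXM1, MKI67, TOP2A and, per comparison, the 2 members with the largest and the 2 with the smallest difference. In each pathway list the 2 largest falls are named, and other genes were chosen after their values were seen. Alternatives were another background correction (normexp), other scalings, a filter on dim probes, outlier spots kept, other variance models, error weights, a block for the slide or for the replicate number, the looser threshold of 0.05, probes of a gene averaged, and each animal left out.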

Additional observations from a re-analysis of the deposited data

Results flagged for a closer look

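Among 117 values checked (38 members and the score in the groups of 4 or 5 animals), 9 had 1 animal set apart from the rest of its group by Dixon's criterion, which flags about 1 in 20 groups by chance. In GD100 BPA animals these were CCNB1 in replicate 1 (11.12, the others 10.55 to 10.71), NUSAP1 in replicate 1 (10.95, the others 11.50 to 11.68), BIRC5 in replicate 1 (10.02, the others 10.39 to 10.54), MAD2L1 in replicate 3 (11.53, the others 11.67 to 11.70), PLK1 in replicate 4 (12.49, the others 12.37 to 12.40) and PLK4 in replicate 4 (8.74, the others 8.51 to 8.54). In GD165 controls they were PLK4 in replicate 5 (7.93, the others 7.51 to 7.52), ESPL1 in replicate 5 (11.00, the others 10.30 to 10.41) and HMMR in replicate 3 (5.16, the others 8.19 to 8.23). In this last case the gap was over 3 log2 units. No member had an interaction of age and BPA that passed the test.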

How the results depend on the processing

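In controls between the ages, 35 to 37 members passed under the 32 alternatives, and the median difference ran from −1.38 to −1.20. With 1 animal left out, the median ran from −1.38 to −1.20, the score difference from −1.37 to −1.18, and 37 members passed each time. In BPA-exposed animals 12 members passed with the slide as a fixed block and 18 in a fit of these groups alone. With 1 animal left out, 22 to 36 passed, the median ran from −1.24 to −0.83 and the score difference from −1.25 to −0.81. In both BPA comparisons and for the interaction, 0 members passed under every alternative run. With 1 animal left out, the score difference at GD165 ran from 0.017 to 0.45 and the interaction of scores from 0.023 to 0.46. The lowest values were those without GD165 BPA replicate 5 and the highest those without GD165 BPA replicate 3. The cause was not tested.

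Replicate numbers do not pair the animals: deviations of same-numbered animals correlated at −0.17 to 0.16. With the replicate block, 35 members passed in controls, 27 in BPA-exposed animals and 0 in the other comparisons. Every member was above background on every array.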
